A study of Mus musculus with 11 samples.

Results

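This report covers 48 nuclear genes that encode subunits of the mitochondrial respiratory chain, chosen by a list of Ensembl gene identifiers out of 22019 genes in a table of ribosome footprint counts. Membership follows function and no threshold on a measured value, although the list was drawn up when earlier results of these data were known. It holds 15 genes of complex I, 4 of complex II, 8 of complex III, cytochrome c, 10 of complex IV and 10 of ATP synthase. The list covers some but not all subunits of each complex, and the order of names in it pairs each identifier with a symbol. Footprints had been counted in livers of male wild-type (WT) mice fed either a control diet (chow) or, in the HFHS groups, food of the High-Fat-High-Sugar kind, with no other treatment. The labels give no strain, age or time on the diet, and they do not say that samples came from separate animals, so every p-value below measures only the spread between these samples, which may be technical.

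A ribosome footprint is the piece of mRNA that a ribosome shields from RNase I. From lysates of 200 mg of frozen liver, 2 sizes of fragment were cut from a gel. Fragments of 30 nt come from ribosomes that stand alone and are called monosomes, and those of 60 nt come from 2 ribosomes in contact and are called disomes. Monosome counts follow how much a gene's mRNA is being translated, and disome counts follow where a ribosome has caught up with the one ahead. The series title places the study in work on impaired translation in obesity, and the comparisons below ask whether the diet, or the footprint class, changed the share of footprints that fell on these genes. There were 3 chow and 3 HFHS monosome libraries, 3 chow disome libraries and 2 HFHS disome libraries.

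The respiratory chain sits in the inner mitochondrial membrane. Complexes I and II pass electrons from NADH and succinate to ubiquinone, complex III passes them on to cytochrome c, and complex IV passes them to oxygen. Complexes I, III and IV pump protons, and ATP synthase uses the resulting gradient to make ATP. Most subunits are encoded in the nucleus, translated on cytosolic ribosomes and imported, while a few core subunits of complexes I, III, IV and ATP synthase are encoded in mitochondrial DNA. Liver is rich in mitochondria, and hepatocytes use this chain to pay for gluconeogenesis, urea synthesis and the oxidation of fatty acids.

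The promoters of such genes are known for sites of the factors NRF1 and GABP, an ETS family protein, and the members were compared on these sequences because the list did not use them. A RefSeq window of 300 bases, from 250 before to 50 after the transcription start (build GRCm38.p6), was matched by symbol for 35 of the 48 genes. The NRF1 letters, GCGCA and then any base and GCGC, searched like all others on both strands, were in 8 of 35 members (22.9%), against 7.17% of 17492 protein-coding genes. The ETS letters CCGGAAG were in 12 of 35 (34.3%), against 12.9% of coding genes. The SP1 letters GGGCGG were in 37.1% of members and 49.2% of coding genes, CCAAT in 48.6% and 42.3%, and TATAAA in 5.71% and 14.8%. A gene with several windows was counted once if any of them held the letters. The coding genes were not limited to those with footprints here, and the number of windows per gene was not matched. The shares are therefore not shown to be particular to this list. Such a match describes the sequence and is no evidence of binding, and footprint counts do not measure promoter activity. 2 windows are shown that hold such letters and whose genes stand near opposite ends of the disome results below. Ndufb8 and Ndufa13, with even fewer disomes for their monosomes than Sdhd, have windows without the NRF1 or ETS letters. Whether the letters go with the disome results was not tested. Sdhd, with few disomes for its monosomes, lies at chr9:50603800-50604099 on the minus strand, with its NRF1 and ETS letters in capitals. Atp5j, with many, has 2 windows, of which the one at chr16:84834927-84835226 on the minus strand holds the ETS letters, in capitals. Both are read 5′ to 3′.
Sdhd: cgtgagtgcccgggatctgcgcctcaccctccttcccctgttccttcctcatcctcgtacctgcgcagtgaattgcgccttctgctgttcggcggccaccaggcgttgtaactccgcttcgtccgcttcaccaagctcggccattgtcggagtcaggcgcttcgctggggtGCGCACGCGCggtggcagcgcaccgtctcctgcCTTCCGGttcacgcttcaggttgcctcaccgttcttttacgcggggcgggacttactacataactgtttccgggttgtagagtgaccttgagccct
Atp5j: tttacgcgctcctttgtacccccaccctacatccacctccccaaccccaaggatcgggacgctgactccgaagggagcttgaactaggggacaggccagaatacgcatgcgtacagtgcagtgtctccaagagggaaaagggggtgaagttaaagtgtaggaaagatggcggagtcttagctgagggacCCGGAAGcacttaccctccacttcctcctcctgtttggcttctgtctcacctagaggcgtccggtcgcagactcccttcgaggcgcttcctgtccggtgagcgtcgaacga

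Of the 48 genes, 47 had counts, against 13700 of the 22019 genes in the whole table. Cycs (ENSMUSG00000063694), the somatic cytochrome c that carries electrons between complexes III and IV, was listed at 0 in all 11 libraries. How reads shared with near-identical gene copies were counted is not given in the sources used here, and it was not tested whether this bears on Cycs. Atp5g1 encodes a membrane ring subunit of ATP synthase whose mature protein is also made from other genes. Whether its reads are shared with those genes was not tested. Total counts ranged from 795145 to 1248781 in chow monosome libraries, from 1196240 to 1612324 in HFHS monosome libraries, from 147212 to 279331 in chow disome libraries and from 235748 to 238837 in HFHS disome libraries. The disome libraries therefore carry the larger counting error, and the lowest count of any of the 47 genes was 7, for Ndufb8 in an HFHS disome library. The columns name a sample barcode and no replicate number, so libraries are named here by letters in the alphabetical order of their barcodes, A to C for chow and D to F for HFHS, and the same letter marks the same barcode in both footprint classes. Levels are in CPM, counts scaled to a common library size with edgeR's TMM factors over all 11 libraries. Chow library A stood apart over all genes, with Pearson correlations of log2 levels of 0.82 and 0.83 with the other chow monosome libraries, which correlated at 0.98 with each other, and of 0.79 and 0.80 in disomes, where the others correlated at 0.96. Over the 47 genes its correlations were 0.96 to 0.98.

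Together the genes took a like share of footprints in every group. They held 1.75%, 1.59% and 1.85% of all counts in the chow monosome libraries A, B and C, and 1.75%, 1.8% and 1.6% in the HFHS monosome libraries D, E and F. In disomes they held 1.82%, 1.65% and 1.79% in the same order of chow libraries, and 1.82% and 1.77% in HFHS libraries D and F. The means were 1.73% ± 0.13 and 1.72% ± 0.1 (SD, n = 3 each) for monosomes of chow and HFHS, and 1.75% ± 0.091 (SD, n = 3) and 1.8% ± 0.035 (SD, n = 2) for disomes. All 4 ranges overlap, and the group means differ by less than the range within the monosome groups.

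**Figure D1:**
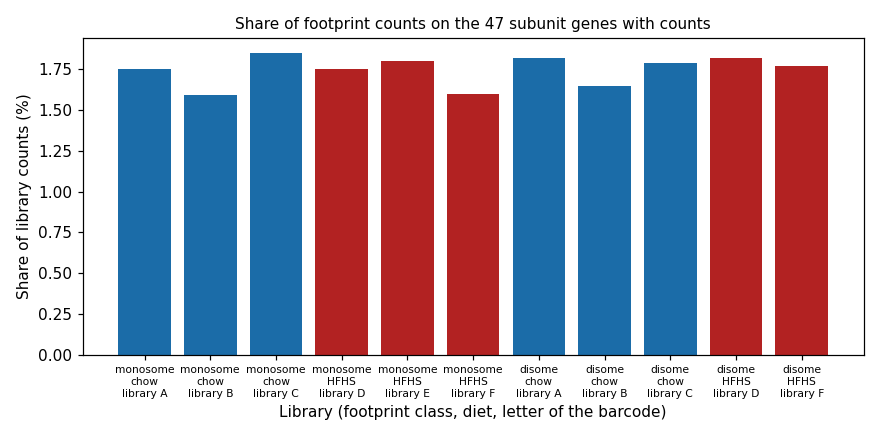
Share of all counts in each library that fell on the 48 genes, in percent, as 1 bar for each of the 11 libraries, with chow in blue and HFHS in red. The axis starts at 0; all bars end between 1.59% and 1.85%, and the groups overlap.

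In monosomes, many of the genes were lowest in the same library of their group. In chow monosomes 33 of 47 were lowest in B, as were 34.5% of the 2179 genes of the whole table with a mean level above 50 CPM. In HFHS monosomes 32 of 47 were lowest in F, against 32.9%. These are the deepest libraries of their groups, and whether depth plays a part was not tested. Disomes were spread more evenly. In chow 10, 19 and 18 of the 47 were lowest in A, B and C, against 39.1%, 25.6% and 35.2% of the 2179 genes. In HFHS 20 and 27 were lowest in D and F, against 56.4% and 43.6%.

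The diet did not shift monosome footprints of any of these genes past the test. Each gene was tested with edgeR's quasi-likelihood test on counts scaled by TMM, with Benjamini-Hochberg adjustment over all genes tested, and is called changed below an adjusted p of 0.05. In monosomes 0 of 47 genes were called, against 4.65% of 6754 genes tested (3.02% higher and 1.63% lower in HFHS), and 2 of the 47 had an unadjusted p below 0.05. DESeq2 also called 0, with 0 of 47 at an unadjusted p below 0.05. The log2 fold changes, HFHS over chow, ran from -0.28 for Ndufv2 to 0.35 for Ndufs1, and their median was 0.02 where that of all tested genes was -0.02. Their median size, without sign, was 0.10, against 0.23 for all genes. The 47 genes also had more counts, with a median of 8.24 in log2 CPM against 4.85 for all genes tested. Sizes were not compared among genes of like counts, so the smaller size is not shown to be particular to this list. Over all 47 genes the 95% intervals lay within -0.58 and 0.65, or 1.49-fold lower and 1.57-fold higher. The groups' libraries did not overlap for 5 genes that were higher in HFHS and 2 that were lower, against 11% and 10.6% of all tested genes. Without library A 0 of 47 were called as well. The background itself moves, to 1.99% of 7120 genes without chow library C and to 8% of 2512 genes at a minimum count of 50, with 0 of 47 called in both cases. In whole liver, fewer cells of a type and fewer footprints per cell cannot be told apart, nor can changes in mRNA and in its translation, since no mRNA level enters these counts.

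By complex, the monosome changes had medians of -0.01 for complex I, 0.14 for complex II, 0.10 for complex III, 0.03 for complex IV and 0.03 for ATP synthase. Levels are given below as CPM, in the order A, B, C for chow and D, E, F for HFHS monosomes, with D, F for HFHS disomes. Fold changes come from the fit of each comparison, which scales its own libraries. CPM is not corrected for gene length, so levels are not compared between genes.

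For each complex the monosome levels of the member with the most counts are given here. Some members with fewer counts spread more, such as Uqcrh at 131.8 to 243.6 CPM in HFHS monosomes. Ndufa4 (ENSMUSG00000029632), first described in complex I and now regarded as a subunit of complex IV, stood at 431, 332 and 410.1 CPM in chow and 450.4, 433 and 331 CPM in HFHS. The groups overlap, with B and F as the low libraries. Sdha (ENSMUSG00000021577), the flavoprotein of complex II that oxidises succinate in the citric acid cycle, stood at 722, 633 and 629.8 CPM in chow and 729, 713 and 782 CPM in HFHS. The chow library A lies inside the HFHS range, so the groups overlap, and the log2 fold change was 0.18 ± 0.13 (SE) (edgeR adjusted p = 0.516). Uqcrc1 (ENSMUSG00000025651), a core protein of complex III related to mitochondrial processing peptidases, stood at 493, 509.6 and 524 CPM in chow and 532, 620 and 613 CPM in HFHS. All HFHS libraries were above all chow libraries, with a log2 fold change of 0.22 ± 0.13 (SE) and an edgeR adjusted p of 0.393, which misses the threshold.

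Cox4i1 (ENSMUSG00000031818), the largest nuclear subunit of complex IV, stood at 845, 761 and 949 CPM in chow and 847, 803 and 746 CPM in HFHS monosomes. Its groups overlap, and the log2 fold change was -0.08 ± 0.13 (SE). Atp5b (ENSMUSG00000025393), the catalytic beta subunit of ATP synthase, stood at 1762, 1626 and 1838 CPM in chow and 1592, 1768 and 1846 CPM in HFHS. Its groups overlap too, at a log2 fold change of 0.01 ± 0.11 (SE), whose 95% interval ran from -0.21 to 0.23.

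In disomes 0 of 47 genes were called between the diets, against 2.96% of 2804 genes tested (1.82% higher and 1.14% lower), and 2 of the 47 had an unadjusted p below 0.05. DESeq2 called 0, with 0 of 47 at an unadjusted p below 0.05. The log2 fold changes ran from -0.89 to 0.54 with a median of 0.05, against -0.03 for all tested genes. The bounds are wider than in monosomes, since the 95% intervals reached -1.57 and 1.09, a change of 2.96-fold lower or 2.13-fold higher. The libraries did not overlap for 5 genes that were higher and 5 that were lower in HFHS, against 14.3% and 13.9% of all tested genes.

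The extremes of these disome changes are described here because of their values. Uqcr10 (ENSMUSG00000059534), a small subunit next to the Rieske protein of complex III, was at 122, 83.9 and 126 CPM in chow and 78.1 and 46.0 CPM in HFHS disomes. Both HFHS libraries lie below all chow libraries, on counts of 19, 21 and 39 against 19 and 11. Its log2 fold change was -0.89 ± 0.34 (SE) (edgeR adjusted p = 0.166). Ndufs1 (ENSMUSG00000025968), the largest core subunit of complex I, which holds iron-sulfur clusters, was at 103, 156 and 126 CPM in chow and 168 and 230.2 CPM in HFHS disomes. In monosomes it stood at 128, 128 and 97.2 CPM in chow and 152, 135 and 156 CPM in HFHS. In both classes all HFHS libraries were above all chow libraries, but the edgeR adjusted p was 0.214 in monosomes and 0.317 in disomes.

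All 4 genes of complex II had disome log2 fold changes above 0, from 0.13 for Sdhb to 0.40 for Sdhd, and none passed the test. Of the 47 genes 26 were above 0, as were 47.5% of all genes tested. In monosomes Sdhd was below 0 (-0.21), while Sdha, Sdhb and Sdhc were above it. Sdha disomes were at 590, 699 and 673 CPM in chow and 723 and 962 CPM in HFHS. The HFHS libraries lie above all chow libraries, with a log2 fold change of 0.29 ± 0.18 (SE) and an edgeR adjusted p of 0.535. Sdhb, which carries the iron-sulfur clusters, and Sdhc and Sdhd, which anchor complex II in the membrane, had values of 0.13, 0.21 and 0.40.

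**Figure D2:**
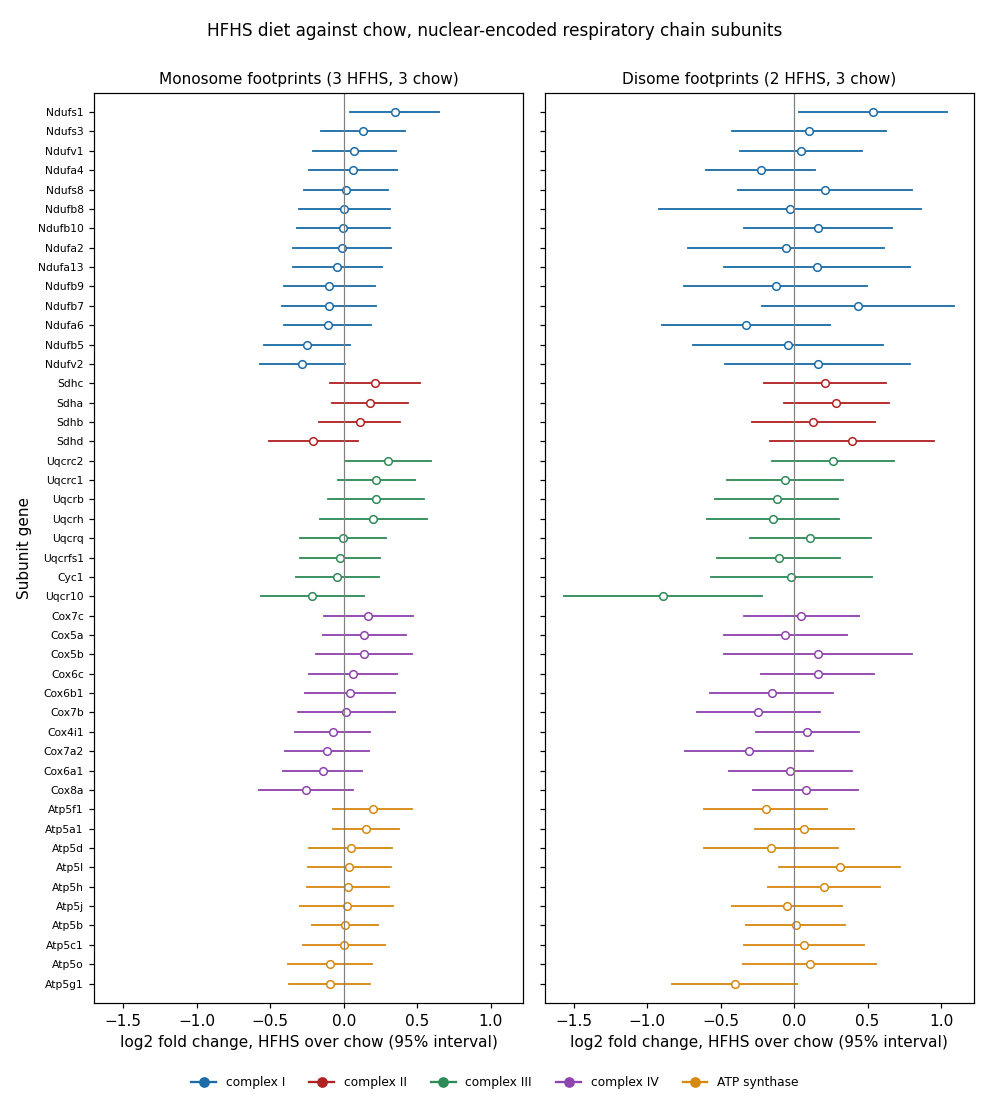
Change with diet for 46 of the 47 genes, as log2 of HFHS over chow on the horizontal axis, with monosomes (3 against 3 libraries) on the left and disomes (2 HFHS against 3 chow libraries) on the right. Points are edgeR estimates, bars 95% intervals and colours complexes; open points mark genes not called, which here are all 46 in both panels, and the disome bars are the longer ones.

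Whether disomes responded to diet differently from monosomes was tested as the difference of both log2 fold changes in 1 edgeR fit of all 11 libraries. 0 of 47 genes were called, as were 0% of 7236 genes tested, and 1 of the 47 had an unadjusted p below 0.05. DESeq2 called 0, with 1 of 47 at an unadjusted p below 0.05. The differences ran from -0.60 for Uqcr10 to 0.70 for Sdhd, with 95% intervals that reached -1.27 and 1.28 and a median of 0.08 against 0.01 for all genes. For Sdhd the difference was 0.70 ± 0.29 (SE) at an edgeR adjusted p of 1.

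Many of the genes differed between disomes and monosomes of the same diet. In chow 25 of 47 genes (53.2%) were called, 6 with more and 19 with fewer disomes than their monosomes would give at the ratio of the average gene, against 44.9% of 4713 genes tested (21.6% higher and 23.3% lower). In HFHS 20 of 47 (42.6%) were called, 6 higher and 14 lower, against 25.1% of 7437 genes (11.5% higher and 13.6% lower). Without both A libraries 19 were called in chow, 4 higher and 15 lower. The 47 genes have more counts than most, with a median of 8.38 in log2 CPM against 5.68 for all genes tested in chow. Among genes that passed a minimum count of 50 in place of 10, the order of the shares turns around, with 62.5% of 1436 genes and 26 of the 47 (55.3%) called in chow and 49.7% of 2786 genes and 20 of the 47 (42.6%) in HFHS. In HFHS the background also fell to 12.3% and 13.4% without disome library D or F, where 15 and 14 of the 47 were called. In chow, libraries of both classes that share a barcode deviated together over 2179 genes, but not over the 47 genes (r of -0.163, -0.118 and -0.141). With the barcode as a block there, all 25 calls were kept and 11 genes were higher and 20 lower, against 49.6% of all genes. The 6 genes gained were Ndufv1, Uqcrh, Cox5a, Cox6c and Atp5a1, which were higher, and Uqcrq, which was lower, with edgeR adjusted p from 0.00657 to 0.0388. The median log2 ratio was -0.14 in chow and -0.20 in HFHS, against -0.01 and -0.07 for all genes. The median size of the ratios, without sign, was 0.46 and 0.41, against 0.63 and 0.68 for all genes. Monosome and disome libraries carry different column prefixes, which mark the footprint class and are not stated to mark a batch. Footprint class and any other difference between both sets of libraries cannot be told apart. The ratio has no absolute scale, and it does not give the share of ribosomes that were in disomes.

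**Figure D3:**
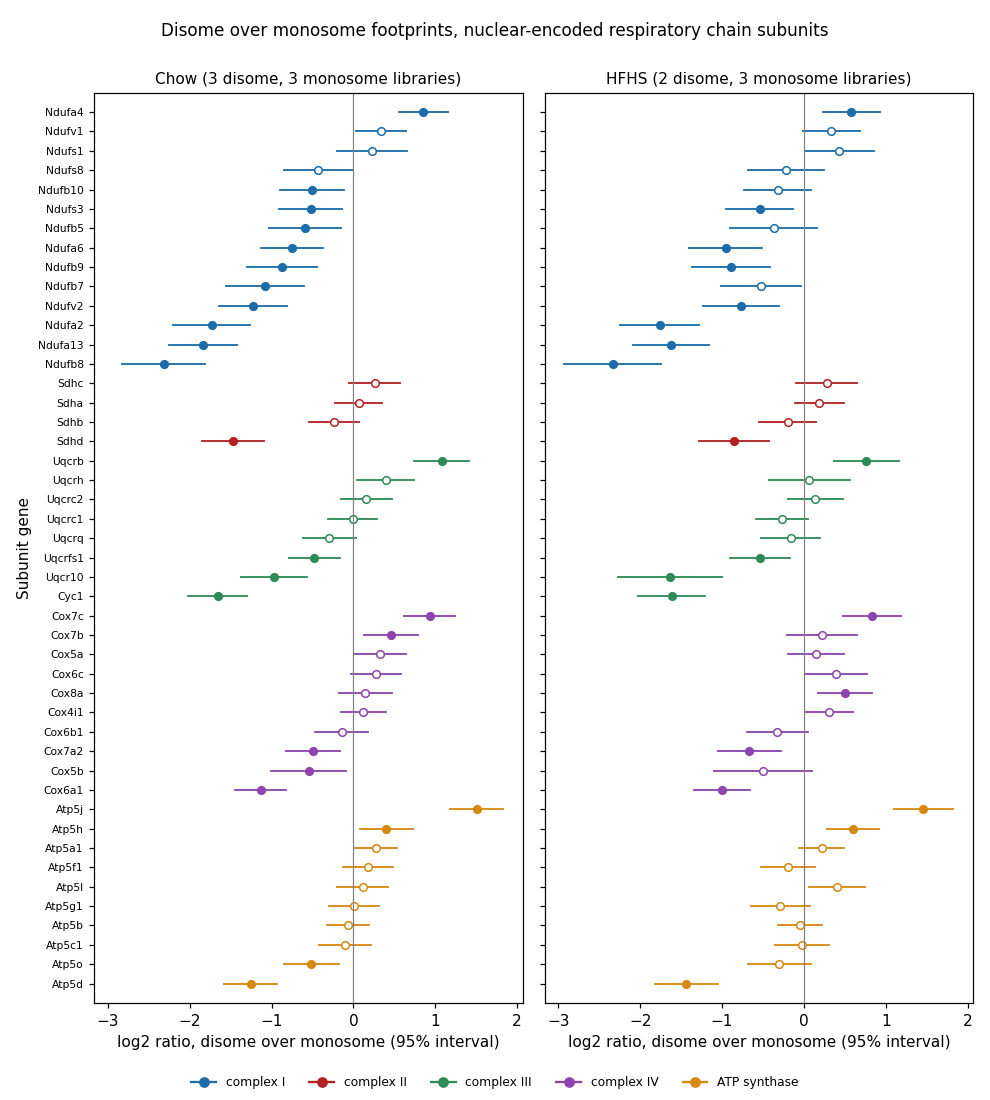
Disomes over monosomes for 46 of the 47 genes, as log2 ratios from edgeR on the horizontal axis, in chow on the left and HFHS on the right. Bars are 95% intervals, colours complexes, filled points called genes and open points genes not called; Atp5j has the highest ratio, 1.51 in chow, and Ndufb8 the lowest, -2.32.

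Complex I held 10 of the 19 genes called lower in chow and 7 of the 14 in HFHS. It has 15 genes in all, and Ndufa4 was the 1 that was higher in each diet. The median log2 ratio was -0.60 in chow and -0.53 in HFHS. Of all genes tested, 23.3% in chow and 13.6% in HFHS were called lower. At a minimum count of 50 these were 486 of 1436 genes in chow and 720 of 2786 in HFHS. When Ndufa4 is set aside and the genes are split by role, a split made after these values were seen, the 8 accessory subunits (Ndufa2, Ndufa6, Ndufa13, Ndufb5, Ndufb7, Ndufb8, Ndufb9 and Ndufb10) were all called lower in chow, with a median of -0.97. In HFHS 5 of the 8 were called lower and all 8 were below 0. Accessory subunits surround and stabilise the catalytic core, and the Ndufb group sits in the part that spans the membrane. Among the core subunits, which carry the electron transfer itself, Ndufs3 and Ndufv2 were called lower in each diet. Ndufs1 (0.225 in chow and 0.431 in HFHS) and Ndufv1 (0.34 in each) were above 0 and not called. With the barcode block Ndufv1 was called higher in each diet, and Ndufs1 was called in neither. Ndufs8 was below 0 in each diet and not called. Some of these calls rest on 1 library. In chow, Ndufb5 is lost without monosome library C or disome library A or B (edgeR adjusted p up to 0.0594). Ndufb10 is lost without monosome library A or C or disome library B, and Ndufs3 without disome library B (edgeR adjusted p up to 0.0839 and 0.0873). These chow calls are also lost without both A libraries and with DESeq2 (adjusted p = 0.0716, 0.0953 and 0.0653). The Ndufs3 call in HFHS is lost without monosome library D, E or F and with DESeq2 (adjusted p = 0.0974). In HFHS, Ndufb9 and Ndufv2 are lost without disome library F (adjusted p = 0.121 and 0.141).

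Ndufb8 (ENSMUSG00000025204), an accessory subunit often used as a marker of assembled complex I, had the lowest ratio of all 47 genes. Its monosomes were at 258, 198 and 217 CPM in chow and 236, 245 and 185 CPM in HFHS, and its disomes at 64.1, 40.0 and 32.4 CPM and 57.5 and 29.3 CPM. Every disome library was below every monosome library of its diet, on 10 disome counts in each chow library and 14 and 7 in HFHS. The log2 ratio was -2.32 ± 0.25 (SE) in chow (0.201 times the average ratio, edgeR adjusted p = 1.02e-09) and -2.34 ± 0.29 (SE) in HFHS (adjusted p = 3.68e-07). Ndufa13 (ENSMUSG00000036199), also called GRIM-19, had monosomes at 329, 264 and 392 CPM in chow and 327, 337 and 279.5 CPM in HFHS, against disomes at 89.8, 104 and 71.2 CPM and 127 and 75.3 CPM. The classes do not overlap in either diet, and the log2 ratios were -1.84 ± 0.20 (SE) and -1.62 ± 0.23 (SE) (edgeR adjusted p = 1.72e-09 and 2.68e-06).

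Ndufa2 (ENSMUSG00000014294), a small accessory subunit of the peripheral arm, had monosomes at 314, 211 and 341 CPM in chow and 311, 299.6 and 238 CPM in HFHS. Its disomes were at 109, 91.9 and 58.2 CPM and 90.4 and 75.3 CPM, again below every monosome library, and the log2 ratios were -1.73 ± 0.23 (SE) and -1.76 ± 0.24 (SE) (edgeR adjusted p = 2.78e-07 and 1.18e-06). Ndufa4 went the other way, with disomes at 584, 647 and 767 CPM in chow and 694 and 506 CPM in HFHS, above all of its monosome libraries given above. Its log2 ratios were 0.86 ± 0.15 (SE) and 0.58 ± 0.17 (SE) (edgeR adjusted p = 1.29e-05 and 0.0123). The HFHS call is lost without disome library D, where the log2 ratio was 0.31 and the edgeR adjusted p 0.37, and also with DESeq2 (adjusted p = 0.0531).

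In complex II, Sdhd (ENSMUSG00000000171) was the 1 gene called, and it was lower in both diets. Its monosomes were at 341, 279.8 and 357 CPM in chow and 285, 319.5 and 234 CPM in HFHS, and its disomes at 83.4, 136 and 107 CPM and 132 and 176 CPM. The classes do not overlap, and the log2 ratios were -1.47 ± 0.19 (SE) and -0.86 ± 0.21 (SE) (edgeR adjusted p = 3.47e-08 and 0.00318). Without HFHS disome library D the second of these was -0.68 at an edgeR adjusted p of 0.0897. Sdha, Sdhb and Sdhc had log2 ratios of 0.07, -0.24 and 0.26 in chow and were not called.

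Complex III held 1 of the highest and 1 of the lowest ratios. Cyc1 (ENSMUSG00000022551), the cytochrome c1 subunit that hands electrons to cytochrome c, had monosomes at 464, 371 and 507 CPM in chow and 403, 460.2 and 423 CPM in HFHS and disomes at 135, 136 and 133 CPM and 115 and 163 CPM. The classes are far apart in both diets, with log2 ratios of -1.66 ± 0.18 (SE) and -1.62 ± 0.20 (SE) (edgeR adjusted p = 7.37e-10 and 3.68e-07). Uqcrb (ENSMUSG00000021520), which takes part in ubiquinone binding, had monosomes at 186, 151 and 163 CPM and 241, 179 and 155 CPM and disomes at 410.5, 279.7 and 327 CPM and 316 and 331 CPM. Disomes exceeded monosomes in every library, with log2 ratios of 1.08 ± 0.17 (SE) and 0.76 ± 0.20 (SE) (edgeR adjusted p = 1.37e-06 and 0.00462). The HFHS value without disome library F was 0.71 at an edgeR adjusted p of 0.0699. Uqcr10 was lower in both diets (-0.97 and -1.63), as was the Rieske iron-sulfur protein Uqcrfs1 (-0.48 and -0.54). The call for Uqcrfs1 in chow is lost without disome library C, and that in HFHS is lost without monosome library E or F or disome library D, with edgeR adjusted p up to 0.0605 and 0.296. The core proteins Uqcrc1 and Uqcrc2 had log2 ratios of -0.01 and 0.16 in chow and were not called, with Uqcrc1 disomes at 558, 475 and 424 CPM in chow and 489 and 481 CPM in HFHS.

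In complex IV the calls went both ways, 2 higher and 3 lower in chow and 2 and 2 in HFHS. Cox7c (ENSMUSG00000017778), a small subunit with 1 pass through the membrane, had monosomes at 247, 235 and 286 CPM in chow and 334, 266 and 251 CPM in HFHS and disomes at 507, 392 and 495 CPM and 575 and 431 CPM. Disomes were above monosomes in every library, with log2 ratios of 0.93 ± 0.15 (SE) and 0.83 ± 0.18 (SE) (edgeR adjusted p = 4.95e-06 and 0.000646), the HFHS call being lost without disome library D (0.59, adjusted p = 0.0786). Cox7b (ENSMUSG00000031231), another small membrane subunit, had monosomes at 189, 240 and 233 CPM and 278, 207 and 179.7 CPM and disomes at 321, 232 and 320.3 CPM and 292 and 222 CPM. Its classes overlap in both diets, and it was called in chow (0.46 ± 0.16 (SE), edgeR adjusted p = 0.0201) and not in HFHS (0.22 ± 0.21 (SE), adjusted p = 0.47). The chow call is lost without either A library or either C library (edgeR adjusted p up to 0.152), without both A libraries (0.385) and with DESeq2 (0.0766).

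Cox6a1, a regulatory subunit in the form expressed in liver, was the lowest of complex IV at -1.13 in chow and -0.998 in HFHS, both called. Cox4i1 disomes stood at 872, 911 and 854 CPM in chow and 1064 and 899.8 CPM in HFHS, and its log2 ratios of 0.12 and 0.30 were not called. Cox8a was called in HFHS (0.50) and not in chow (0.14), but its difference between the diets, 0.42 ± 0.25 (SE), was not called either (edgeR adjusted p = 1). Its HFHS call is lost without monosome or disome library F, with edgeR adjusted p up to 0.351.

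ATP synthase held the highest ratio of all 47 genes. Atp5j (ENSMUSG00000022890), coupling factor 6 in the peripheral stalk, had monosomes at 216, 210.3 and 233 CPM in chow and 231, 263 and 169 CPM in HFHS and disomes at 667, 448 and 666 CPM and 666 and 539.9 CPM. Every disome library was above every monosome library. The log2 ratio was 1.51 ± 0.16 (SE) in chow (2.84 times the average ratio, edgeR adjusted p = 6e-10) and 1.46 ± 0.18 (SE) in HFHS (adjusted p = 2.82e-07). Atp5d, the delta subunit of the central stalk, was the lowest of this complex at -1.25 in chow and -1.44 in HFHS, both called. Atp5b disomes were at 1578, 1746 and 1407 CPM in chow and 1561 and 1779 CPM in HFHS, overlapping its monosomes, and its log2 ratios of -0.07 and -0.05 were not called. Atp5h, the d subunit of the peripheral stalk, was called higher in both diets (0.40 and 0.60). Its chow call held in 1 of 6 fits that each left out a library (edgeR adjusted p up to 0.383), the exception being the fit without disome library B. Its HFHS call is lost without disome library F (adjusted p = 0.0704).

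**Figure D4:**
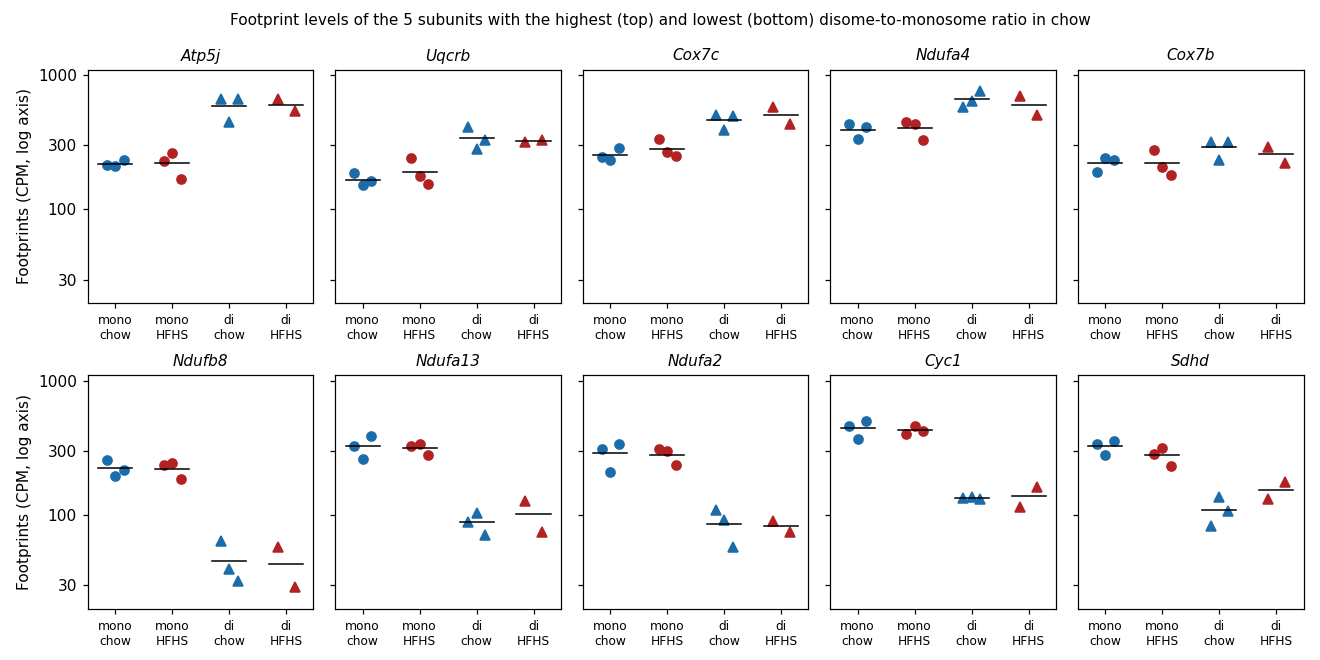
Levels of named genes in each library, in CPM scaled by TMM, on a log axis. Blue marks chow, red HFHS, circles monosomes and triangles disomes, each point 1 library and each black line a group mean; disomes lie below monosomes for Ndufb8 and above them for Atp5j in both diets.

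The ratios of the members had a similar order in both diets. All 25 genes called in chow had the same sign in HFHS, 5 were called higher and 14 lower in both diets, and 0 were called in opposite directions. The log2 ratios of chow and HFHS share no library. Across the 47 genes they correlated at a Pearson r of 0.95 and a Spearman rho of 0.94, as a description over genes that are not independent. The same agreement was not computed over all genes, so it is not shown to be particular to this list. Of the 25 chow calls, 17 held in every fit that left out 1 library, and of the 20 HFHS calls 9 did. Those 9 are Ndufa2, Ndufa6, Ndufa13, Ndufb8, Uqcr10, Cyc1, Cox6a1, Atp5d and Atp5j. Ndufs3 in HFHS is the reverse case, since its call (-0.54, edgeR adjusted p = 0.0467) is lost whichever of the 5 libraries is left out, with adjusted p from 0.072 to 0.205. Called in chow but not in HFHS, without the barcode block, were Ndufb5, Ndufb7, Ndufb10, Cox5b, Cox7b and Atp5o, and for none of these was the difference between the diets called. The chow call of Cox5b, an outer subunit of complex IV that binds zinc, is lost without monosome library C or disome library A or B (edgeR adjusted p up to 0.118).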

How the data were processed

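The deposited table holds raw counts of footprints per gene, as whole numbers that the authors had not normalized, per the file headers and values. Cutadapt 3.5 and Bowtie2 appear in the submitters' processing notes. The genome build, annotation, strand setting, use of the molecular identifiers of 8 nt and treatment of shared reads were not given in the sources used here. Replicate 2 of the HFHS disomes was not analysed here. The table pairs no identifier with a symbol, so 10 lists of other genes (131 genes: other subunits, assembly factors, mitochondrially encoded subunits and cell type markers) were not analysed here, and the liver label was not checked against markers. The values of 1 of the 47 genes are not reported here by themselves and not drawn. The 48 genes and the lists were chosen by function, but with earlier results of these data known.

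Genes with a minimum count of 10 by filterByExpr were kept, and the counts were scaled by TMM and compared by the two-sided robust quasi-likelihood F-test of edgeR 4.0.16 (R 4.3.3). Adjustment was by Benjamini-Hochberg over every gene kept, at a threshold of 0.05. All 47 genes with counts passed the filter in each comparison. The SE is the log2 fold change over the square root of F, and intervals are 95% t intervals. Over 2179 genes, deviations from the group means correlated between the classes for libraries that share a barcode at 0.861, 0.692 and 0.683 in chow, so the blocked fit is given beside the chow ratio. Chow libraries B and C, which differ in barcode, also correlated between the classes, at 0.55 and 0.543. Over the 47 genes the values for a shared barcode in chow were -0.163, -0.118 and -0.141. The labels do not say that a barcode marks 1 liver. The same steps were tested on simulated counts. Values in every library are given for the genes called between diets, for the 5 highest and 5 lowest log2 ratios in chow and for the gene with the most counts of each complex; Uqcr10 and Ndufs1 were added after their values were seen. Alternatives were RLE scaling, DESeq2 1.42.0, other filters, no robust estimation, all 11 libraries in 1 fit, a barcode block, and fits without 1 library or without both libraries A.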

Additional observations from a re-analysis of the deposited data

How the results depend on the processing

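Between diets, and for the difference of diet effects, 0 of the 47 genes were called under every alternative run; the smallest adjusted p of any of them ranged from 0.0847 to 0.534 in monosomes, from 0.132 to 0.764 in disomes and from 0.326 to 1 for the difference. Under a minimum count of 50, 30 of the 47 were tested in disomes, and without chow disome library A 46 were. All genes called in a disome to monosome ratio kept their sign under every alternative. Of the 25 calls in chow, DESeq2 kept 19, no filter 23, a minimum count of 50 kept 24 and leaving out both A libraries 19; of the 20 in HFHS these kept 16, 18 and 20, with no library A in that fit. Leaving out 1 library gave 4 to 6 genes higher and 14 to 19 lower in chow, and 4 to 6 higher and 10 to 13 lower in HFHS. No filter lowered the log2 ratios of all tested genes by a median of 0.17 in chow and 0.14 in HFHS (shifts of -0.174 and -0.137), and ratios should be read relative to that. The total of genes called in the whole table fell with DESeq2 from 110 to 56 (monosomes, lower in HFHS), from 51 to 16 and 32 to 10 (disomes, higher and lower) and from 1010 to 611 (HFHS ratio, lower). The share of all genes called between diets ranged over the alternatives from 1.99% to 8% in monosomes and from 0.489% to 7.89% in disomes. For the ratio it ranged from 18.7% to 62.5% in chow and from 12.3% to 49.7% in HFHS, and that of the members from 40.4% to 66% and from 29.8% to 55.3%.

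With the sample barcode as a replicate block, 11 members were higher and 20 lower in chow, and 11 higher and 15 lower in HFHS; all 25 and 20 calls were kept and 6 were gained in each. In HFHS, deviations of libraries of both classes with the same barcode correlated at r of 0.087 and 0.292, and barcodes were not taken as pairs there. With 2 disome libraries, the deviations of D and F mirror each other. The 2 values are therefore not independent and cannot decide whether barcodes mark pairs. Disome library D correlated at 0.137 with monosome library E, which has another barcode. Over the 47 genes the values for a shared barcode in HFHS were 0.309 and 0.354. The genes gained in HFHS were Ndufv1, Sdhc, Cox4i1, Cox6c and Atp5l, which were higher, and Cox5b, which was lower, with edgeR adjusted p from 0.00343 to 0.0364. The block left 0 of the 47 called for the difference of diet effects, and 7 genes of the whole table. No paired analysis was possible between the diets because the columns carry no replicate number and no barcode is shared. Precision is limited by disome counts of 7 to 14 in each library for Ndufb8 and by 2 HFHS disome libraries.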
